A study of Mus musculus with 18 samples.

Results

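The 32 genes described here encode the sensors, transcription factors, chaperones and degradation machinery of the unfolded protein response and of protein folding in the endoplasmic reticulum (ER). They were chosen by name, as rows of the deposited expression table whose symbol matched a list of 32, out of 45703 genes in the table. All 32 were found, and all 32 had at least 1 TPM (transcripts scaled for gene length and to the same total in each library) in at least 3 of the 18 libraries, the level that left 14229 genes for testing. Derl3 was the one member under 1 TPM in some libraries, with 10 of 18 at or above it.

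The libraries came from mouse Th17 cells, interleukin-17-producing helper T cells grown in culture from naive T cells, with 3 libraries in each of 6 groups. Mice were Slc2a3-fl/fl Cd4-cre (GLUT3KO, without the glucose transporter GLUT3), Acly-fl/fl Cd4-cre (ACLYKO, without ATP citrate lyase, which makes acetyl-CoA from citrate) or wild type (WT). Cd4-cre deletes in T cells from the stage at which they turn on CD4, and the labels name no Cre in WT. After 48 hours of polarization the cells spent 24 hours with or without acetate, at 20 mM by the protocols of the samples and at 10 mM by the text of the series. Cells of all 6 groups, WT without acetate included, were then given PMA and ionomycin together with brefeldin A and monensin for 5 hours. Both are blockers of secretion, and brefeldin A, which collapses the route between the ER and the Golgi, is itself a textbook trigger of the unfolded protein response. No library without the blockers was analysed here, so each level below was read under that block. The strain label is C57BL/6 for 12 libraries and carries another number for 6, and it was not used. Whether the 3 libraries of a group stem from different mice is not stated in the labels, so a p-value reflects how far these samples differ, and that spread may be technical.

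When unfolded proteins gather in the ER lumen, the chaperone BiP (Hspa5) leaves the membrane sensors IRE1 (Ern1), PERK (Eif2ak3) and ATF6 (Atf6). IRE1 splices the Xbp1 messenger into the form that encodes an active factor, PERK phosphorylates eIF2α and so favours translation of ATF4, and ATF6 is cut in the Golgi to release a transcription factor. Their target genes encode chaperones, disulfide isomerases and the machinery of ER-associated degradation, which returns misfolded proteins to the cytosol. In lymphocytes the pathway is best known from plasma cells, and T cells that make large amounts of cytokine use it too. Splicing of Xbp1, phosphorylation and cleavage of ATF6 cannot be seen in levels per gene.

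Promoters of these genes are shown because the ER stress response element (ERSE), with the letters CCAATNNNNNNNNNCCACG, is a textbook binding site of NF-Y together with ATF6 or XBP1. RefSeq windows from 250 bases before to 50 bases after the annotated start site (build GRCm38.p6) were matched for 28 of the 32 members and searched on both strands. ERSE was found in 9 of 28 members (32.1%) and in 37 of 27025 promoters of all genes (0.137%). ERSE-II, ATTGGNCCACG, which shares the letters CCACG with ERSE, was found in 2 of 28 members (7.14%) and in 0.0444% of all promoters. The core of the XBP1 site, TGACGTGG, was found in 0 of 28 members and in 0.714% of all promoters. The composite site of ATF4 and C/EBP, TGATGNAA, was found in 1 of 28 members (3.57%) and in 4.51% of all promoters. A match is a description of letters, and a window without one says nothing of the factor. Each matched site of ERSE or ERSE-II is given below in its own 5′ to 3′ direction, with the fixed letters of the element in capitals and the free ones in lower case.
Hspa5: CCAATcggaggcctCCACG
Hsp90b1, upstream site: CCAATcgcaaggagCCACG
Hsp90b1, downstream site: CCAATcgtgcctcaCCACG
Calr: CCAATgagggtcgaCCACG
Canx: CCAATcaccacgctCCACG
Pdia6: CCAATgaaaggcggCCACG
Dnajc3: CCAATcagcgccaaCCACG
Creld2: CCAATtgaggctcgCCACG
Syvn1: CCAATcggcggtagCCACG
Derl3: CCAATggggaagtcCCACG
Herpud1: ATTGGgCCACG
Dnajb11: ATTGGcCCACG

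4 promoters are printed whole, from 250 bases before to 50 bases after the start site on the strand of the gene, with matched elements in capitals and the rest in lower case. Hspa5 is shown as the gene of the central chaperone (chr2:34771840-34772139, plus strand). Hsp90b1 is shown as the one member with a pair of ERSE matches (chr10:86705395-86705694, minus strand), the second of them on the opposite strand. Creld2 passed the test in 4 of the comparisons below, and its ERSE lies on the opposite strand (chr15:88819396-88819695, plus strand). Herpud1 holds both an ERSE-II and, on the opposite strand, the only ATF4 and C/EBP match among the members (chr8:94386179-94386478, plus strand). None of these matches overlapped another.
Hspa5: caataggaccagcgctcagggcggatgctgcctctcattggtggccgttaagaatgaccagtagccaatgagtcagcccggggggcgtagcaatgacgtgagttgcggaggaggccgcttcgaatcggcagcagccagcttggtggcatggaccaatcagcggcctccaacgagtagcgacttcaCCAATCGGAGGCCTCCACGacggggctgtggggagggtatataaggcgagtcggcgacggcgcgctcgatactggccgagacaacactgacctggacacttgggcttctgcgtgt
Hsp90b1: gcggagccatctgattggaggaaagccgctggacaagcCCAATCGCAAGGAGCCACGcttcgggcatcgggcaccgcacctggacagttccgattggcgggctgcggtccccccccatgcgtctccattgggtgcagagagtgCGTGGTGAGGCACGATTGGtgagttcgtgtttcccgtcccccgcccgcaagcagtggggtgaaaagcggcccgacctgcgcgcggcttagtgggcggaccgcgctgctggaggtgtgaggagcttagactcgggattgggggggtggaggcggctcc
Creld2: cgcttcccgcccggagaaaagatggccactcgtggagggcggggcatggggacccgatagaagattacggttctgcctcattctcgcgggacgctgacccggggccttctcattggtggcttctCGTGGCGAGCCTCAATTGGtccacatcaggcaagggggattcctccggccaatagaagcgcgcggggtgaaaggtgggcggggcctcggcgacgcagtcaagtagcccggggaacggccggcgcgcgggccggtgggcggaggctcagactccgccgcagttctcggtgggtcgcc
Herpud1: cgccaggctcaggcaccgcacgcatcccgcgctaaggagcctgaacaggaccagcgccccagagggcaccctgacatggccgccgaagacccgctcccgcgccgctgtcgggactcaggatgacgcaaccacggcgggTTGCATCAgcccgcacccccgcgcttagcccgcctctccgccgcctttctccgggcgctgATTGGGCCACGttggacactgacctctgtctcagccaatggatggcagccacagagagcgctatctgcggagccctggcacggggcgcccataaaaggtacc

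**Figure D1:**
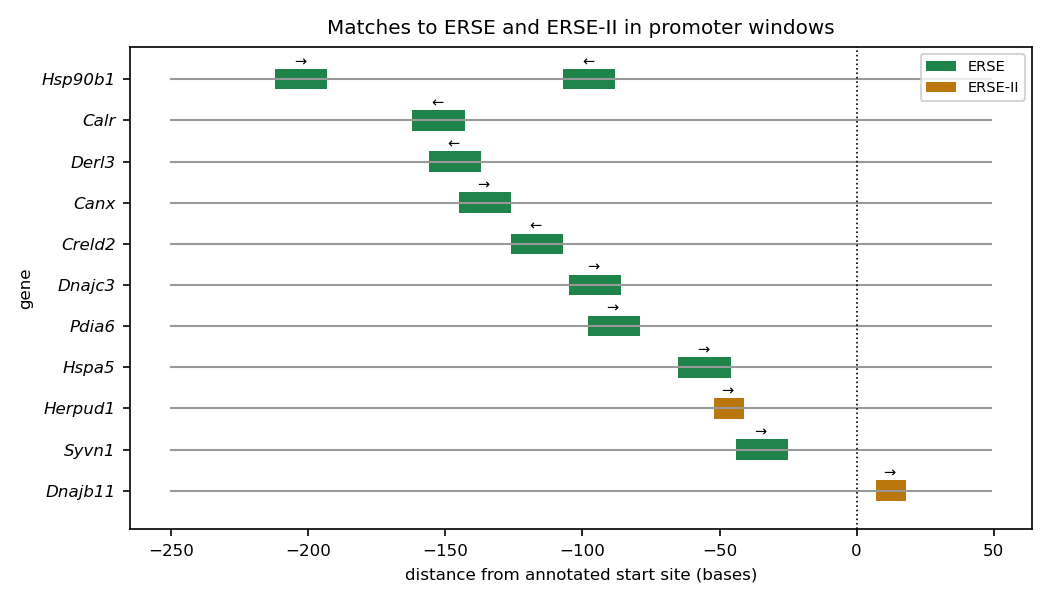
Place of each ERSE and ERSE-II match in the promoter windows of the 11 members that hold one, drawn as distance in bases from the annotated start site (dotted line). Grey lines span the window, boxes are matches and arrows give their strand relative to the gene; all ERSE matches lie before the start site, from -212 to -26, and the ERSE-II of Dnajb11 lies after it, at 7 to 17.

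The 18 libraries held 18.7 to 30.1 M reads assigned to genes (median 23.3 M). The mean of the targeted gene Acly was 11.3 ± 3.85 TPM in ACLYKO, against 396 ± 4.27 TPM in WT, and that of Slc2a3 was 6.17 ± 2.10 TPM in GLUT3KO, against 17.7 ± 2.91 TPM in WT (SD, n = 3). For Slc2a3, the lowest ACLYKO library (5.76 TPM) lay within the GLUT3KO range. The sum of 6 T cell markers was 3399.7 to 3785 TPM in GLUT3KO, 1555 to 2161 TPM in ACLYKO and 2366 to 2563 TPM in WT without acetate. With acetate it was 3184 to 3331 TPM in GLUT3KO, 2419.7 to 2488 TPM in ACLYKO and 2415 to 2528 TPM in WT. GLUT3KO lay above WT without overlap in both media, and the part of this in the differences below was not tested. Of the plasma cell list, Jchain, Mzb1 and Tnfrsf17 were under 1 TPM in every library, as were Ms4a1 and Pax5 of B cells, 6 of 8 myeloid markers, Ly6g and Elane of neutrophils, and Ncr1 and Klrb1c of NK cells. Il17a, the defining cytokine gene of Th17 cells, ranged over 91.0 to 192 TPM in GLUT3KO, 38.2 to 156 TPM in ACLYKO and 599 to 703 TPM in WT without acetate. With acetate its range was 1393 to 1616 TPM in GLUT3KO, 544 to 744 TPM in ACLYKO and 1458 to 2111 TPM in WT. Il17f, a second interleukin-17 gene, had 104 to 106 TPM in GLUT3KO, 195 to 425 TPM in ACLYKO and 670 to 867 TPM in WT without acetate. With acetate Il17f had 683 to 846 TPM in GLUT3KO, 293 to 354 TPM in ACLYKO and 1467 to 1822 TPM in WT. There GLUT3KO lay below WT without overlap, unlike for Il17a. Within groups, 63.6% of the variance over genes lay on 1 axis, whose sign is arbitrary. Scores on it were above 20 in 4 libraries, at 90.2 in ACLYKO replicate 1, 35.6 in WT replicate 1, 31.9 in GLUT3KO replicate 1 and 29.5 in ACLYKO replicate 1 with acetate. On the other side ACLYKO replicates 2 and 3 had scores of -36.6 and -53.5, GLUT3KO replicate 2 of -36.0 and WT replicate 3 of -20.2. Counts of members are given for all libraries, without each library in turn and without the 4 high-score libraries, a choice made after seeing the data that leaves out libraries on 1 side only. For fits without 1 library, the share of all tested genes called is not given. A moved count there is thus not read as particular to the members. In bulk RNA, fewer cells of a type and less RNA per cell cannot be told apart.

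Summed over the 32 genes, the level was highest in GLUT3KO cells and lowest in WT cells with acetate. The most abundant members weigh most in this sum. In GLUT3KO without acetate, Hspa5 averaged 4669 TPM, Hsp90b1 2291 TPM and Calr 2019 TPM, of a mean sum of 18473 TPM. The sum was 18004, 16285 and 16884 TPM in the GLUT3KO libraries with acetate, 13726, 12070.1 and 12436 TPM in ACLYKO with acetate, and 10115, 9198 and 9352 TPM in WT with acetate. Without acetate it was 20210.4, 16382 and 18827 TPM in GLUT3KO, 15651, 15224 and 14186 TPM in ACLYKO, and 15893, 10889 and 11415 TPM in WT. All 3 GLUT3KO libraries lay above all 3 WT libraries in both media, while WT replicate 1 without acetate overlapped ACLYKO. By group mean, 20 members were highest in GLUT3KO without acetate, 9 in GLUT3KO with acetate, 2 in ACLYKO and 1 in ACLYKO with acetate. The lowest mean of 26 members was in WT with acetate, that of 4 in ACLYKO and that of 2 in ACLYKO with acetate. WT replicate 1 was the highest of the 3 WT libraries for 25 of 32 members, and ACLYKO replicate 1 was the lowest of its group for 17 and the highest for 12. Such counts of highest and lowest groups and libraries were not made over all tested genes. They are not read as particular to the members.

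**Figure D2:**
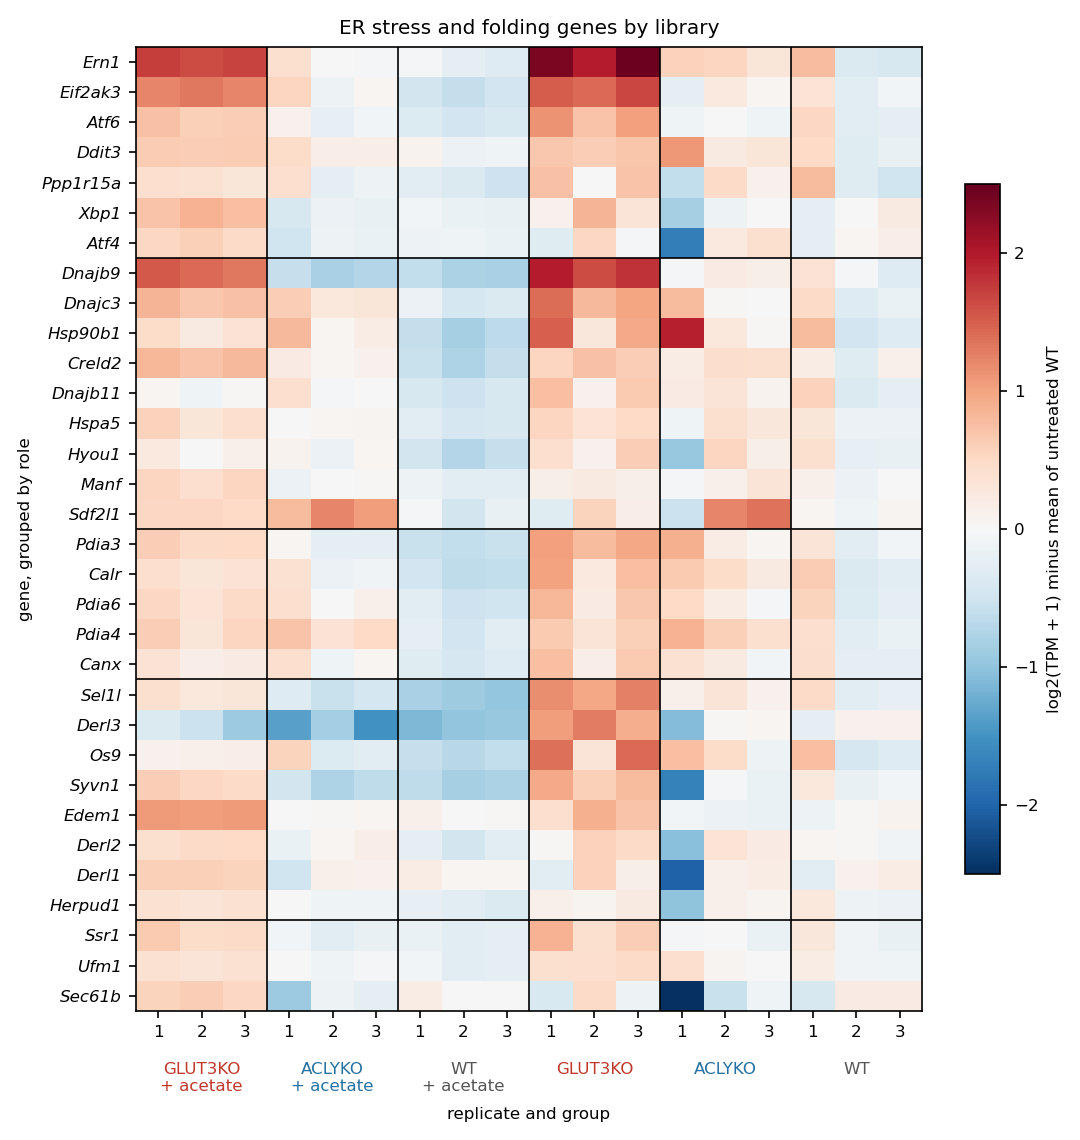
Difference of log2(TPM + 1) from the mean of the 3 untreated WT libraries (colour, red higher and blue lower) for the 32 genes (rows, grouped by role) in each of the 18 libraries (columns). Ern1, Eif2ak3 and Dnajb9 are red in all 6 GLUT3KO libraries, most rows are blue in WT with acetate, and ACLYKO replicate 1 departs from replicates 2 and 3.

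GLUT3 loss was tested on log2(TPM + 1) with limma over all 14229 genes, and a gene was called at an adjusted p under 0.05. Without acetate, 16 of 32 members were higher in GLUT3KO than in WT and 0 were lower, where 24.9% of all tested genes were higher and 8.47% lower. They were the sensor genes Ern1, Eif2ak3 and Atf6, the stress factor gene Ddit3, the chaperone genes Hspa5, Dnajb9, Dnajc3 and Creld2, the disulfide isomerase genes Pdia3 and Pdia4, the degradation genes Sel1l, Derl3, Edem1 and Os9, and Ssr1 and Ufm1. The median log2 change was 0.60 over the members and 0.17 over all tested genes, and 31 of 32 members had a change above 0. In 16 members every GLUT3KO library lay above every WT library. Separation of this kind was not counted over all tested genes, here or in other comparisons, so such counts have no background beside them. With median-ratio scaling of the libraries, which moved the median of all genes to -0.01, the members' median was 0.38 and 10 of the 16 remained called; Ddit3, Hspa5, Os9, Pdia4, Ssr1 and Ufm1 did not. That scaling also moved the share of higher genes among all calls to 54.9%, against 74.7% in the fit reported here. Leaving out each library in turn gave 11 to 23 calls, and 11 of the 16 remained in every case. With the 4 high-score libraries left out, 29 members were higher, all 16 among them, and 41.5% of all tested genes were higher and 18.5% lower.

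With acetate, 22 of 32 members were higher in GLUT3KO than in WT and 0 were lower, where 20.9% of all tested genes were higher and 9.50% lower. Every GLUT3KO library lay above every WT library in all 32 members, again with no share over all genes counted. The median log2 change was 0.79, against 0.08 over all genes. The 10 members that were not called were Atf4, Ppp1r15a, Hsp90b1, Hyou1, Dnajb11, Sdf2l1, Derl1, Derl3, Os9 and Sec61b. Of the 22, 19 remained with median-ratio scaling and 18 when any 1 library was left out; Canx, Ddit3, Derl2 and Herpud1 lost the call without at least 1 library. Without the 4 high-score libraries, none of which is in these 2 groups though all enter the shared estimate of spread, 31 members were higher, as were 35.7% of all tested genes. The share of higher genes among all calls was 68.8%, and 56.7% with median-ratio scaling. 14 members were higher in both media, and 24 in at least 1. Neither count was made over all tested genes.

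For ACLY loss, few members were called in the fit over all 18 libraries, and those not called are not read as unchanged. Beside the shares of all tested genes given below, the count was lower without acetate and near the share with it. Without acetate, 1 of 32 was higher in ACLYKO than in WT (Pdia4) and 0 were lower, where 12.7% of all tested genes were higher and 6.38% lower, with a median log2 change of 0.14 over the members and 0.03 over all genes. Pdia4 lost that call without any one of 4 libraries (highest adjusted p = 0.149, without WT replicate 2). The count was 6 without WT replicate 1, 2 without ACLYKO replicate 1 or 3, and 0 without ACLYKO replicate 2 or without WT replicate 2 or 3. The median was between 0.05, without WT replicate 2, and 0.32, without WT replicate 1. Without the 4 high-score libraries, 18 members were higher and 2 lower, where 29.4% of all tested genes were higher and 9.90% lower. With a replicate block, which pairs same-numbered libraries, 2 were higher. With acetate, 4 of 32 were higher in ACLYKO than in WT (Creld2, Eif2ak3, Pdia4 and Sdf2l1) and 0 were lower, where 11.5% of all tested genes were higher and 1.98% lower. Every ACLYKO library lay above every WT library in 21 members and below in 1, with no share over all genes counted. The median log2 change was 0.37, against 0.16 over all genes. Creld2 and Pdia4 kept the call whichever library was left out, while Eif2ak3 lost it without any one of 5 libraries and Sdf2l1 without any one of 6. The count was 9 without ACLYKO replicate 1 or WT replicate 1 of the untreated groups. It was 2 without ACLYKO replicate 1 or 3 with acetate, or without any one of the 3 WT libraries with acetate. With median-ratio scaling 2 members remained, and without the 4 high-score libraries 14 were higher, as were 22.6% of all tested genes. With that scaling 54.8% of all called genes were higher without acetate, against 66.6% in the fit reported here, and 61.95% with acetate, against 85.35%.

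Set directly against each other without acetate, 12 of 32 members were higher in GLUT3KO than in ACLYKO and 0 were lower, where 25.2% of all tested genes were higher and 15.2% lower. They were Ern1, Eif2ak3, Atf6, Xbp1, Dnajb9, Dnajc3, Pdia3, Sel1l, Syvn1, Edem1, Derl3 and Ssr1, and the median log2 change was 0.51 over the members and 0.10 over all genes. Of the 12, 9 remained when any 1 library was left out; Dnajc3, Pdia3 and Xbp1 did not. When the 4 high-score libraries were left out, 18 were higher and 1 lower, where 31.9% of all tested genes were higher and 26.3% lower. Median-ratio scaling gave 10 higher members and a share of higher genes among all calls of 52.0%, against 62.3%. This comparison shares its GLUT3KO libraries with that of GLUT3KO and WT, so the overlap of their calls is not read as a result.

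**Figure D3:**
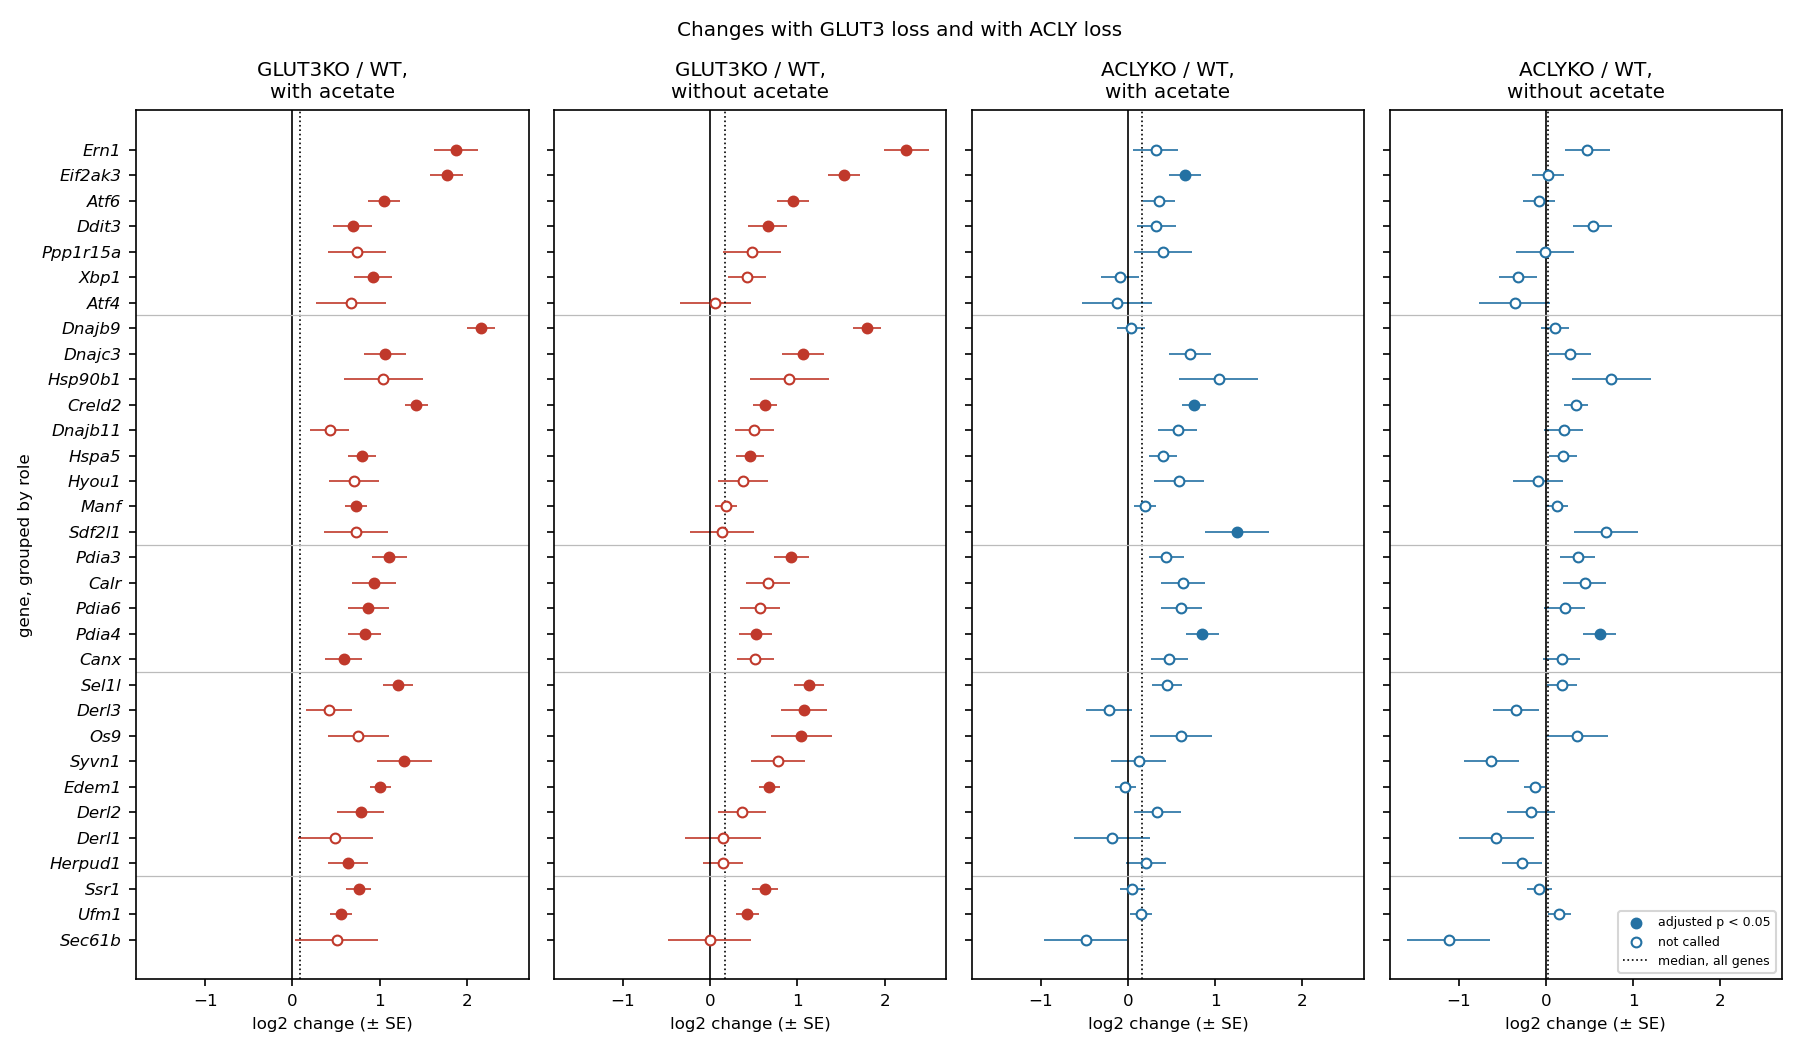
Log2 change with its standard error for the 32 genes (rows, grouped by role) in GLUT3KO against WT and in ACLYKO against WT, each with and without acetate, on the log2(TPM + 1) scale. Filled points passed an adjusted p under 0.05, open points did not, and the dotted line is the median of all tested genes; 22 and 16 points are filled for GLUT3KO, with and without acetate, and 4 and 1 for ACLYKO.

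Among the sensors and transcription factors, 4 of 7 were higher in GLUT3KO than in WT without acetate and 5 of 7 with it. Beside these, 24.9% of all tested genes were higher without acetate and 20.9% with it. Ern1, which encodes the kinase and nuclease IRE1 (GeneID 78943, chromosome 11, 106397620 to 106487796), had 71.6, 54.4 and 77.0 TPM in the GLUT3KO libraries, against 23.4, 10.1 and 9.80 TPM in WT. All 3 GLUT3KO libraries were far above the highest WT library, replicate 1, which itself stood above the other WT libraries. The mean was 4.69 times that of WT (log2 change 2.25 ± 0.25, adjusted p = 8.56e-06), the largest change of any member in this comparison. In ACLYKO it had 20.4, 19.8 and 16.7 TPM (log2 change against WT 0.48 ± 0.25, adjusted p = 0.211). With acetate the values were 46.3, 43.1 and 44.8 TPM in GLUT3KO, 17.8, 13.1 and 13.0 TPM in ACLYKO and 12.9, 11.1 and 10.5 TPM in WT. GLUT3KO again lay above both other genotypes without overlap (log2 change against WT 1.88 ± 0.25, adjusted p = 5.17e-05).

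Eif2ak3, the gene of the sensor kinase PERK (GeneID 13666, chromosome 6, 70844484 to 70905241), had 92.0, 85.7 and 103 TPM in GLUT3KO, against 40.5, 26.0 and 30.0 TPM in WT (log2 change 1.53 ± 0.19, adjusted p = 1.8e-05). ACLYKO libraries, at 26.8, 37.9 and 32.8 TPM, lay among those of WT. With acetate, GLUT3KO had 75.4, 80.5 and 75.5 TPM, ACLYKO 46.0, 28.7 and 32.7 TPM and WT 22.6, 20.7 and 22.5 TPM. The groups did not overlap, and both knockouts passed against WT (log2 changes 1.77 ± 0.19, adjusted p = 4.99e-06 for GLUT3KO, and 0.65 ± 0.19, adjusted p = 0.0303 for ACLYKO). Atf6, whose product is the sensor that is cut in the Golgi (GeneID 226641, chromosome 1, 170704457 to 170868585), had 162, 122 and 152 TPM in GLUT3KO, against 107, 60.8 and 63.3 TPM in WT (log2 change 0.95 ± 0.18, adjusted p = 0.000987). WT replicate 1 was the highest of its group but stayed under the lowest GLUT3KO library. In ACLYKO, Atf6 had 68.6, 73.8 and 69.3 TPM, under GLUT3KO in every library (log2 change of GLUT3KO against ACLYKO 1.02 ± 0.18, adjusted p = 0.000410). With acetate Atf6 had 124, 113 and 115 TPM in GLUT3KO and 58.4, 52.9 and 56.5 TPM in WT, again without overlap (log2 change 1.05 ± 0.18, adjusted p = 0.000454).

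The transcription factor genes had smaller log2 changes under GLUT3 loss than the sensor genes in both media. Xbp1, which encodes the factor activated by IRE1 (GeneID 22433, chromosome 11, 5520641 to 5525993), had 255, 427 and 294 TPM in GLUT3KO, against 202, 235 and 277 TPM in WT, and the groups overlapped (log2 change 0.43 ± 0.22, adjusted p = 0.150). With acetate it had 389, 430.2 and 399 TPM in GLUT3KO, 179, 215 and 206 TPM in ACLYKO and 224, 209 and 207 TPM in WT. There GLUT3KO stood apart from both (log2 change against WT 0.93 ± 0.22, adjusted p = 0.00449). Atf4, the factor downstream of PERK (GeneID 11911, chromosome 15, 80255184 to 80257545), had 898, 1577 and 1084 TPM in GLUT3KO, 334, 1317 and 1464 TPM in ACLYKO and 942, 1153 and 1250.0 TPM in WT. The spread within both knockout groups was wider than any difference between groups, with ACLYKO replicate 1 the lowest library (log2 change of GLUT3KO against WT 0.06 ± 0.40, adjusted p = 0.928). With acetate GLUT3KO had 1595, 1678 and 1542 TPM and WT 1016, 1022 and 987 TPM, without overlap but not called (log2 change 0.67 ± 0.40, adjusted p = 0.240).

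Ddit3, which encodes the stress factor CHOP (GeneID 13198, chromosome 10, 127290793 to 127296291), had 205, 197 and 209 TPM in GLUT3KO, 274, 151 and 159 TPM in ACLYKO and 181, 103 and 114 TPM in WT. GLUT3KO libraries lay close together and above WT (log2 change 0.66 ± 0.22, adjusted p = 0.0334), while ACLYKO replicate 1 was the highest of these 9 libraries. The call was lost without any one of 5 libraries (highest adjusted p = 0.156, without WT replicate 2). With acetate Ddit3 had 202, 198 and 202 TPM in GLUT3KO and 137, 116 and 119 TPM in WT (log2 change 0.69 ± 0.22, adjusted p = 0.0284). Ppp1r15a, whose product GADD34 helps to remove the phosphate from eIF2α, averaged 336 ± 88.7 TPM in GLUT3KO and 254 ± 132 TPM in WT (SD, n = 3). It passed in none of the comparisons.

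**Figure D4:**
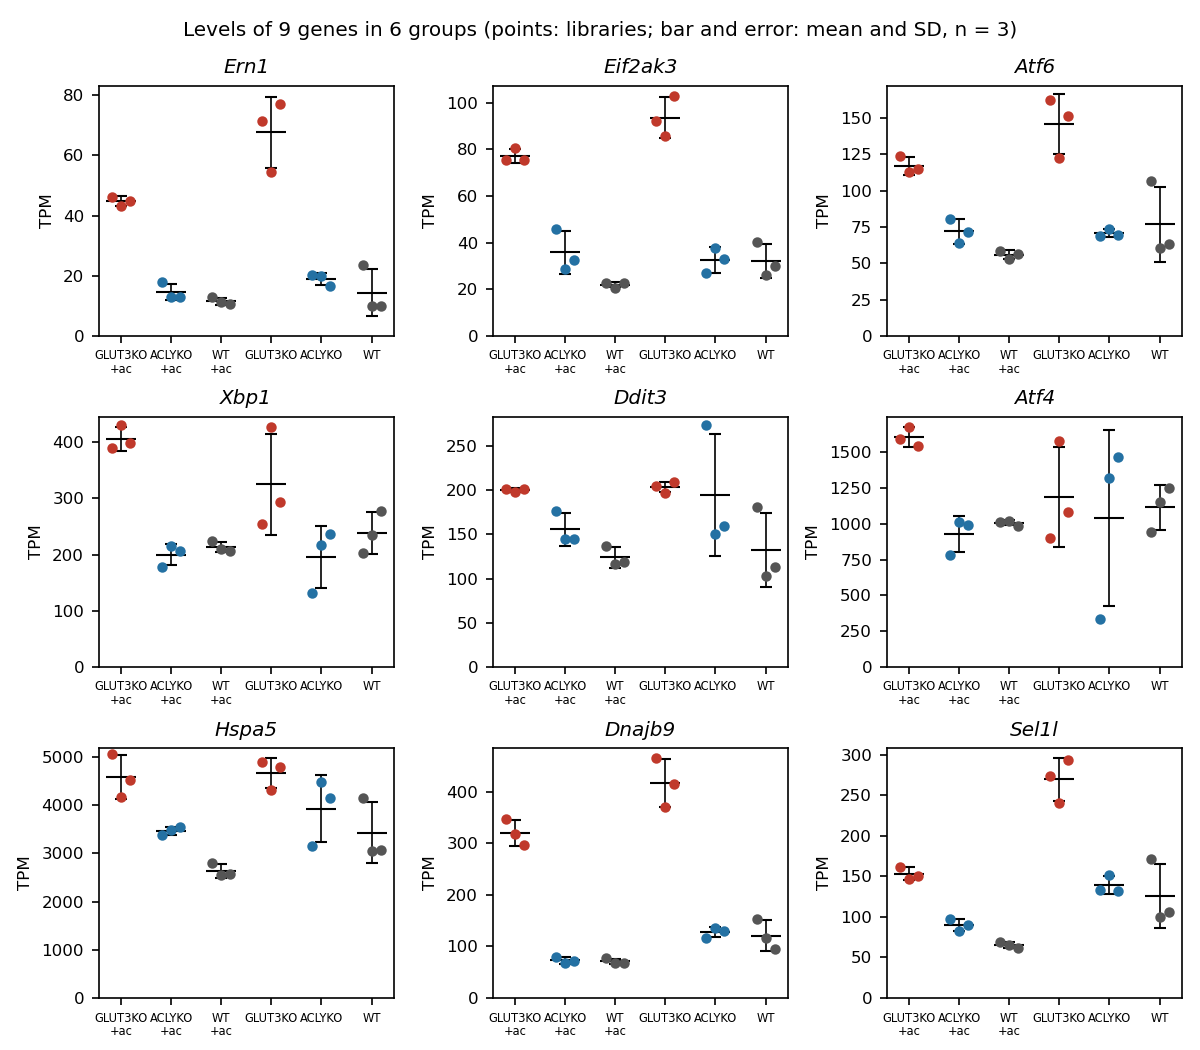
TPM of 9 genes in the 6 groups, with each point a library and the bar and whiskers the mean and SD of 3 libraries. Ern1, Eif2ak3, Atf6, Dnajb9 and Sel1l sit higher in all GLUT3KO libraries than in WT libraries of the same medium, while for Atf4 and Xbp1 the groups overlap without acetate.

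Of the 9 chaperones and cochaperones, 4 were higher in GLUT3KO than in WT without acetate and 5 with it. Shares of all tested genes were 24.9% and 20.9%, in that order. Hspa5, which encodes BiP, the main ER chaperone, and highest of the members by mean TPM in every group (GeneID 14828, chromosome 2, 34772090 to 34776529), had 4895, 4308 and 4803 TPM in GLUT3KO, against 4159, 3056 and 3071 TPM in WT. The lowest GLUT3KO library was just above the highest WT library, replicate 1 (log2 change 0.46 ± 0.16, adjusted p = 0.0401). That call was lost without any one of 11 libraries (highest adjusted p = 0.154, without WT replicate 2). ACLYKO libraries had 3157, 4479 and 4153 TPM and overlapped WT. With acetate Hspa5 had 5060.0, 4162 and 4527 TPM in GLUT3KO, 3382, 3491 and 3541 TPM in ACLYKO and 2799, 2548 and 2566 TPM in WT. GLUT3KO was then higher whichever library was left out (log2 change 0.79 ± 0.16, adjusted p = 0.00157), and ACLYKO lay between the other genotypes without being called (log2 change 0.40 ± 0.16, adjusted p = 0.129). The site printed above for Hspa5 lies from -65 to -47.

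Dnajb9, which encodes ERdj4, a cochaperone that helps BiP to hold IRE1 inactive (GeneID 27362, chromosome 12, 44205897 to 44210068), had 465, 370.0 and 415 TPM in GLUT3KO, against 153, 115 and 94.0 TPM in WT. Its lowest GLUT3KO library was far above the highest WT library (log2 change 1.80 ± 0.16, adjusted p = 9.42e-07). ACLYKO libraries, at 117, 136 and 131 TPM, lay within the WT range. With acetate the values were 346, 319 and 296 TPM in GLUT3KO, 79.4, 67.4 and 71.2 TPM in ACLYKO and 77.0, 67.8 and 67.3 TPM in WT. The mean of GLUT3KO was 4.53 times that of WT (log2 change 2.16 ± 0.16, adjusted p = 1.6e-07), the largest change of any member with acetate. Creld2, an ER-resident disulfide isomerase-like protein (GeneID 76737, chromosome 15, 88819646 to 88826681), had 113, 128 and 119 TPM in GLUT3KO, 87.8, 105 and 101 TPM in ACLYKO and 87.3, 62.3 and 83.6 TPM in WT. Both knockouts lay above WT in every library, and GLUT3KO was called (log2 change 0.63 ± 0.14, adjusted p = 0.00236) while ACLYKO was not (log2 change 0.34 ± 0.14, adjusted p = 0.0952). With acetate Creld2 had 138, 126 and 137 TPM in GLUT3KO, 88.3, 80.0 and 83.1 TPM in ACLYKO and 52.3, 44.9 and 50.4 TPM in WT. The groups stood in steps without overlap, and both knockouts were called against WT (log2 changes 1.42 ± 0.14, adjusted p = 1.86e-06 for GLUT3KO, and 0.76 ± 0.14, adjusted p = 0.00183 for ACLYKO).

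Manf, a secreted and ER-retained factor that is induced by ER stress, had 673, 709 and 667 TPM in GLUT3KO and 658, 549 and 611 TPM in WT without acetate. The lowest GLUT3KO library was just above the highest WT library, and the difference was not called (log2 change 0.18 ± 0.13, adjusted p = 0.303). With acetate it had 879, 814 and 873 TPM in GLUT3KO, against 555, 501 and 494 TPM in WT, without overlap (log2 change 0.73 ± 0.13, adjusted p = 0.000406). Dnajc3, which encodes the BiP cochaperone p58IPK, averaged 164 ± 35.1 TPM in GLUT3KO and 79.2 ± 24.9 TPM in WT (log2 change 1.07 ± 0.24, adjusted p = 0.00302). It was also higher with acetate, at 130.0 ± 7.92 TPM in GLUT3KO and 61.8 ± 6.66 TPM in WT. Hsp90b1, the ER member of the HSP90 family, averaged 2291 ± 917 TPM in GLUT3KO, 2342 ± 1836 TPM in ACLYKO and 1252 ± 649 TPM in WT. Its spread was wide in every untreated group, with ACLYKO replicate 1 at 4458 TPM and the other ACLYKO libraries at 1389 and 1178 TPM, and it was called in no comparison. Hyou1, an exchange factor of BiP, averaged 433 ± 75.6 TPM in GLUT3KO and 336 ± 83.8 TPM in WT. Dnajb11, which encodes the BiP cochaperone ERdj3, averaged 167 ± 37.8 TPM in GLUT3KO and 120.2 ± 45.4 TPM in WT, and neither gene was called in any comparison. Sdf2l1, a partner of ERdj3, had its highest group means in ACLYKO, with 107, 143 and 128 TPM in ACLYKO with acetate, against 59.2, 44.5 and 53.6 TPM in WT with acetate (log2 change 1.25 ± 0.37, adjusted p = 0.0346). GLUT3KO libraries with acetate had 87.3, 87.4 and 86.5 TPM, between those groups.

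Of the 5 lectin chaperone and disulfide isomerase genes, 2 were higher in GLUT3KO than in WT without acetate and all 5 with it. Shares of all tested genes were 24.9% and 20.9%. The difference of the acetate changes between GLUT3KO and WT was called for 0 of the 5, so the counts are not read as a change with acetate. Pdia3, the isomerase that works with calnexin and calreticulin on glycoproteins (GeneID 14827, chromosome 2, 121413902 to 121438687), had 1279.7, 1098 and 1242 TPM in GLUT3KO, 1166, 716 and 651 TPM in ACLYKO and 795, 524 and 606 TPM in WT. Every GLUT3KO library lay above every WT library (log2 change 0.93 ± 0.20, adjusted p = 0.00226), while ACLYKO replicate 1 reached the GLUT3KO range. With acetate the values were 968, 886 and 888 TPM in GLUT3KO and 427, 412 and 429 TPM in WT (log2 change 1.11 ± 0.20, adjusted p = 0.000612). Pdia4, another isomerase, was the one member called in both knockouts in both media. It had 273, 217 and 261 TPM in GLUT3KO, 315, 262 and 228 TPM in ACLYKO and 233, 145 and 153 TPM in WT. WT replicate 1 fell within the range of both knockouts, and the log2 change was 0.52 ± 0.19, adjusted p = 0.0440 for GLUT3KO, and 0.62 ± 0.19, adjusted p = 0.0323 for ACLYKO. The first of these calls was lost without any one of 13 libraries (highest adjusted p = 0.191, without WT replicate 2). With acetate Pdia4 had 267, 215 and 252 TPM in GLUT3KO, 282, 222 and 243 TPM in ACLYKO and 145, 123 and 143 TPM in WT. Both knockouts were then above WT in every library (log2 changes 0.83 ± 0.19, adjusted p = 0.00359 for GLUT3KO, and 0.85 ± 0.19, adjusted p = 0.00681 for ACLYKO).

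Pdia6, an isomerase that also acts on IRE1 and PERK, had 1061, 681 and 948 TPM in GLUT3KO and 878, 469 and 507 TPM in WT, with overlap through WT replicate 1 (log2 change 0.57 ± 0.23, adjusted p = 0.0737). With acetate it had 853, 756 and 823 TPM in GLUT3KO and 496, 417 and 418 TPM in WT, without overlap (log2 change 0.87 ± 0.23, adjusted p = 0.0102). Calr and Canx encode the lectin chaperones calreticulin and calnexin. Calr averaged 1599.6 ± 67.2 TPM in GLUT3KO with acetate and 836 ± 51.0 TPM in WT with acetate (log2 change 0.94 ± 0.25, adjusted p = 0.0105). Canx averaged 576 ± 40.7 TPM in GLUT3KO and 382 ± 15.1 TPM in WT with acetate (log2 change 0.59 ± 0.21, adjusted p = 0.0467), a call lost without any one of 10 libraries. Without acetate Calr had log2 change 0.66 ± 0.25, adjusted p = 0.0556, and Canx 0.52 ± 0.21, adjusted p = 0.0727.

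Of the 8 degradation genes, 4 were higher in GLUT3KO than in WT without acetate and 5 with it. Beside these, 24.9% and 20.9% of all tested genes were higher. Sel1l, the adaptor of the membrane ubiquitin ligase HRD1 (GeneID 20338, chromosome 12, 91806043 to 91849157), had 274, 241 and 294 TPM in GLUT3KO, 133, 152 and 132 TPM in ACLYKO and 171, 100.3 and 106 TPM in WT. GLUT3KO was above both other genotypes in every library (log2 change against WT 1.13 ± 0.17, adjusted p = 0.000129), and ACLYKO lay within the WT range. With acetate Sel1l had 162, 147 and 151 TPM in GLUT3KO, 96.8, 82.0 and 90.3 TPM in ACLYKO and 68.6, 65.6 and 62.1 TPM in WT. With acetate the 3 genotypes did not overlap, GLUT3KO highest and WT lowest (log2 change of GLUT3KO against WT 1.22 ± 0.17, adjusted p = 7.57e-05). Syvn1, which encodes HRD1 itself, averaged 156 ± 19.1 TPM in GLUT3KO and 90.7 ± 15.5 TPM in WT, a difference that was not called (log2 change 0.78 ± 0.31, adjusted p = 0.0692). With acetate it averaged 130.5 ± 6.48 TPM in GLUT3KO and 53.0 ± 3.74 TPM in WT (log2 change 1.28 ± 0.31, adjusted p = 0.00570).

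Edem1, a lectin that hands misfolded glycoproteins to degradation (GeneID 192193, chromosome 6, 108824045 to 108859356), had 55.8, 78.0 and 69.0 TPM in GLUT3KO, 39.3, 37.6 and 36.8 TPM in ACLYKO and 38.0, 42.2 and 44.4 TPM in WT. The GLUT3KO libraries were all above the rest (log2 change against WT 0.68 ± 0.12, adjusted p = 0.000508). With acetate the spread was small, with 87.6, 87.1 and 88.4 TPM in GLUT3KO, 41.2, 42.2 and 43.0 TPM in ACLYKO and 45.1, 42.0 and 42.3 TPM in WT. Every GLUT3KO library lay far above every library of the other genotypes (log2 change against WT 1.01 ± 0.12, adjusted p = 1.6e-05). Derl3, a Derlin of the exit channel that is known from secretory cells (GeneID 70377, chromosome 10, 75893398 to 75895941), was the least abundant member. It had 5.41, 6.51 and 4.81 TPM in GLUT3KO, 0.460, 2.17 and 2.21 TPM in ACLYKO and 1.67, 2.37 and 2.33 TPM in WT. All GLUT3KO libraries were above all others (log2 change against WT 1.07 ± 0.27, adjusted p = 0.00573, a scale that understates changes at such low levels). With acetate Derl3 had 1.42, 1.13 and 0.659 TPM in GLUT3KO, 0.218, 0.714 and 0.0862 TPM in ACLYKO and 0.421, 0.562 and 0.611 TPM in WT. GLUT3KO then lay above WT but overlapped ACLYKO, and was not called against WT (log2 change 0.42 ± 0.27, adjusted p = 0.266).

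Os9, a lectin of the same ligase complex, averaged 139 ± 51.6 TPM in GLUT3KO and 68.1 ± 33.5 TPM in WT (log2 change 1.04 ± 0.35, adjusted p = 0.0330). Its groups overlapped through WT replicate 1, and the call was lost without any one of 4 libraries. Herpud1, an organiser of that complex, averaged 661 ± 12.0 TPM in GLUT3KO with acetate and 425 ± 22.4 TPM in WT with acetate (log2 change 0.64 ± 0.23, adjusted p = 0.0467), a call lost without any one of 14 libraries. Derl2 averaged 31.3 ± 1.30 TPM in GLUT3KO with acetate and 17.8 ± 1.52 TPM in WT with acetate (log2 change 0.78 ± 0.27, adjusted p = 0.0403), and this call was lost without any one of 11 libraries. Derl1 averaged 288 ± 4.49 TPM in GLUT3KO with acetate and 205 ± 11.3 TPM in WT with acetate and was not called in any comparison.

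Of the remaining members, Ssr1, a subunit of the translocon-associated TRAP complex, had 237, 172 and 199 TPM in GLUT3KO, 126, 128 and 116 TPM in ACLYKO and 158, 122 and 113 TPM in WT. GLUT3KO was higher than both in every library (log2 change against WT 0.63 ± 0.15, adjusted p = 0.00374). With acetate Ssr1 had 204, 179 and 182 TPM in GLUT3KO and 115, 106 and 111 TPM in WT (log2 change 0.76 ± 0.15, adjusted p = 0.00102). Ufm1, a ubiquitin-like modifier that acts on ribosomes at the ER, had 54.6, 55.4 and 57.5 TPM in GLUT3KO and 47.3, 38.6 and 38.4 TPM in WT, without overlap (log2 change 0.43 ± 0.13, adjusted p = 0.0177). With acetate it had 53.8, 51.8 and 53.8 TPM in GLUT3KO and 39.0, 33.8 and 34.7 TPM in WT (log2 change 0.56 ± 0.13, adjusted p = 0.00361). Without acetate neither gene was called with median-ratio scaling, and a correction for GC content and length, chosen after seeing the data, turned the log2 change of Ssr1 to -0.00765 and that of Ufm1 to -0.0230. Sec61b, a subunit of the protein channel itself, had 230.4, 420.3 and 274 TPM in GLUT3KO, 46.6, 202 and 279 TPM in ACLYKO and 227, 345 and 345 TPM in WT. ACLYKO replicate 1 was far below the other libraries, and no comparison called Sec61b (log2 change of ACLYKO against WT -1.11 ± 0.48, adjusted p = 0.121). With acetate its values were 441, 461 and 433 TPM in GLUT3KO and 343, 298 and 299.7 TPM in WT.

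With acetate, 5 members were called in at least 1 genotype, and 4 of these were lower. The matching share of all tested genes was counted only within each genotype, and is given below. In WT, 4 of 32 were lower with acetate (Creld2, Derl3, Dnajb9 and Sel1l) and 0 higher, where 2.28% of all tested genes were lower and 4.22% higher. The median log2 change was -0.36 over the members and -0.02 over all genes, and 29 of 32 members were below 0. In 17 members every acetate library lay below every library without it, with no share over all genes counted. Without WT replicate 1, the highest WT library for 25 members, 1 member was called, Sel1l, and the median was -0.19. The count was also 1 without WT replicate 2 with acetate, 2 without WT replicate 3 in either medium, and 7 without ACLYKO replicate 1. Leaving out the 4 high-score libraries gave 8 lower members, a median of also -0.19, and 8.74% of all tested genes lower. In GLUT3KO, 2 members were lower with acetate (Derl3 and Sel1l) and 1 higher (Edem1), where 7.89% of all tested genes were lower and 4.86% higher, with a median of -0.12 over the members and -0.07 over all genes. In ACLYKO, 3 members were lower (Derl3, Dnajb9 and Sel1l) and 0 higher, where 5.60% of all tested genes were lower and 11.7% higher, with a median of -0.07 over the members and 0.10 over all genes. The median in GLUT3KO was between -0.32, without GLUT3KO replicate 2, and -0.08, and that in ACLYKO between -0.22, without ACLYKO replicate 1, and 0.02, without ACLYKO replicate 2 with acetate. In GLUT3KO without the 4 high-score libraries, 6 members were lower and 3 higher, where 24.5% of all tested genes were lower and 11.6% higher. In ACLYKO without them, 8 were lower, where 17.2% of all tested genes were lower. The count in GLUT3KO was 5 without ACLYKO replicate 1 or GLUT3KO replicate 2. That in ACLYKO was 5 without ACLYKO replicate 1, and 1 without ACLYKO replicate 2 or without ACLYKO replicate 3 with acetate. Median-ratio scaling changed the share of higher genes among all calls in GLUT3KO to 57.4%, against 38.1%, and in ACLYKO to 56.6%, against 67.6%.

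Sel1l and Derl3 were called lower with acetate in each genotype. For Sel1l the log2 change was -0.81 ± 0.17, adjusted p = 0.00675 in GLUT3KO, -0.63 ± 0.17, adjusted p = 0.0198 in ACLYKO, and -0.89 ± 0.17, adjusted p = 0.00587 in WT. In each genotype, the values given above put every acetate library under every library without acetate. For Derl3 the log2 change was -1.68 ± 0.27, adjusted p = 0.000887 in GLUT3KO, -0.90 ± 0.27, adjusted p = 0.0285 in ACLYKO, and -1.02 ± 0.27, adjusted p = 0.0321 in WT. ACLYKO replicate 1 without acetate, at 0.460 TPM, lay within the range of the ACLYKO libraries with acetate, and the other genotypes did not overlap. The Derl3 call was lost in WT without any one of 6 libraries and in ACLYKO without any one of 4, and that of Sel1l in ACLYKO without any one of 3. Dnajb9 fell with acetate in ACLYKO (log2 change -0.81 ± 0.16, adjusted p = 0.00278) and in WT (-0.74 ± 0.16, adjusted p = 0.0128), and in GLUT3KO had a log2 change of -0.37 ± 0.16, adjusted p = 0.144. Creld2 fell in WT (log2 change -0.64 ± 0.14, adjusted p = 0.0109), a call lost without any one of 3 libraries, as was that of Dnajb9 in WT. Edem1 rose with acetate in GLUT3KO (log2 change 0.38 ± 0.12, adjusted p = 0.04998), a call lost without any one of 15 libraries and with the replicate block.

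**Figure D5:**
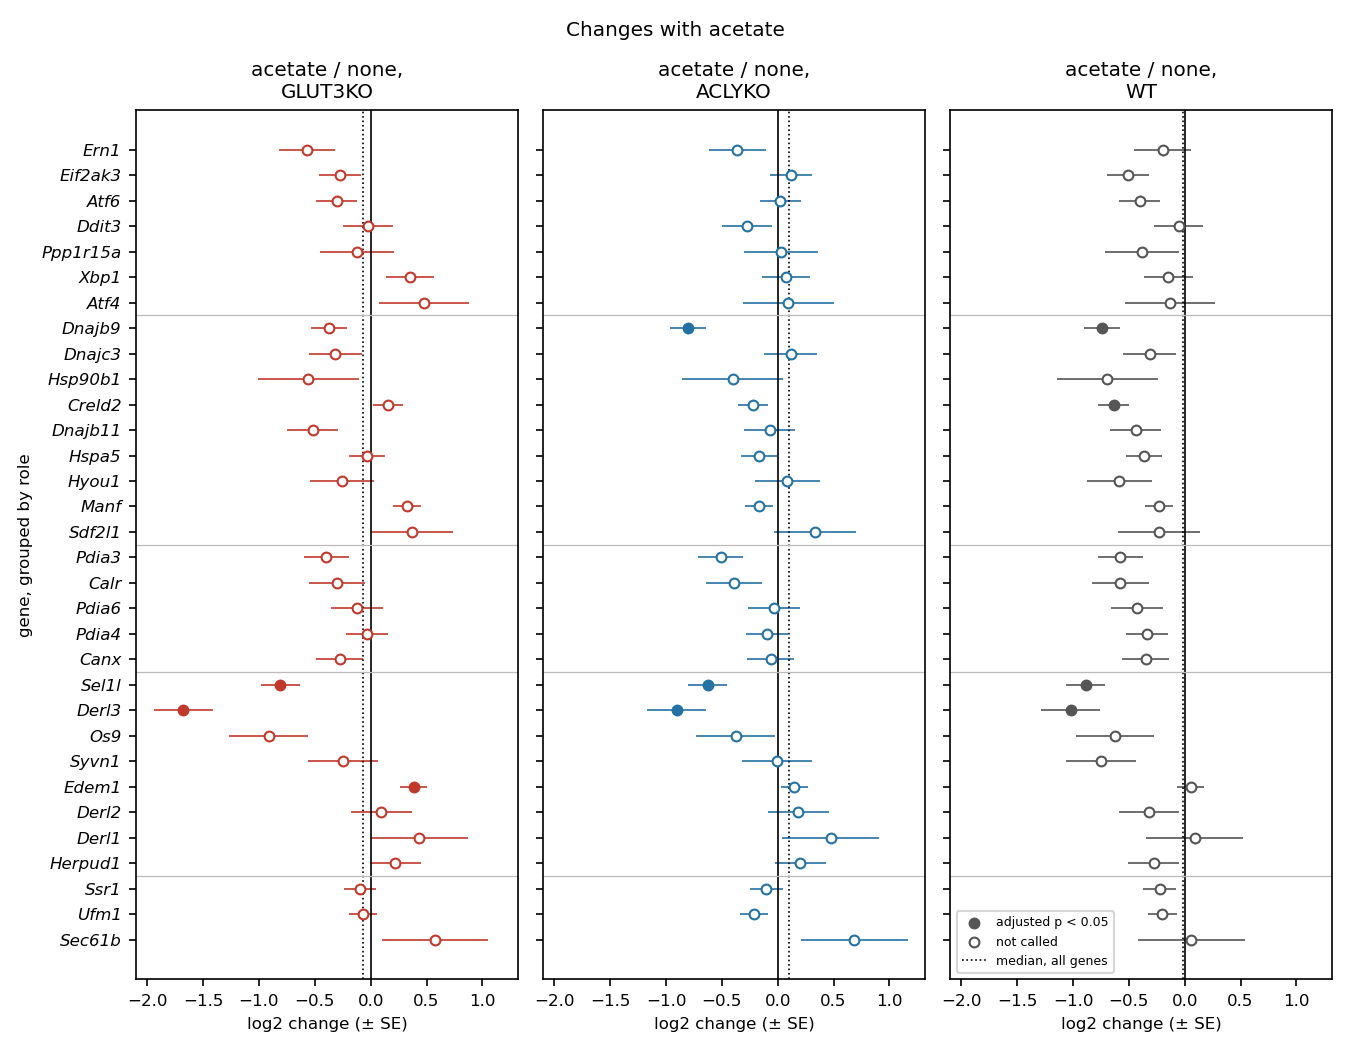
Log2 change with acetate against no acetate, with its standard error, for the 32 genes (rows, grouped by role) in GLUT3KO, ACLYKO and WT, on the log2(TPM + 1) scale. Filled points passed an adjusted p under 0.05, open points did not, and the dotted line is the median of all tested genes; Sel1l and Derl3 are filled in all 3 panels, Dnajb9 in ACLYKO and WT, Creld2 in WT and Edem1, to the right of 0, in GLUT3KO.

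Whether acetate acted differently by genotype was tested as a difference of the acetate changes. For GLUT3KO minus WT, limma called 0 of 32 members in either direction, beside 0.225% of all tested genes higher and 0.548% lower. At an unadjusted p under 0.05 there were 2 members, Creld2 (difference 0.79 ± 0.19, adjusted p = 0.0895) and Manf (difference 0.55 ± 0.18, adjusted p = 0.270). Creld2 averaged 133 ± 6.47 TPM with acetate and 119.6 ± 7.52 TPM without it in GLUT3KO, and 49.2 ± 3.87 TPM with acetate and 77.7 ± 13.5 TPM without it in WT. It was the 1 member called for this difference by voom on the recovered reads (adjusted p = 0.0432), with median-ratio scaling (0.0239), without ACLYKO replicate 1 (0.0239) and without WT replicate 2 (0.0371). With the 4 high-score libraries left out, where 1.15% of all tested genes were higher and 4.35% lower, Creld2 (adjusted p = 0.0392) and Manf (0.0489) were called. For ACLYKO minus WT, limma called 0 of 32 members, beside 0.780% of all tested genes higher and 0.562% lower; voom also called 0, and 2 members had an unadjusted p under 0.05, Creld2 (difference 0.42 ± 0.19, adjusted p = 0.442) and Eif2ak3 (difference 0.63 ± 0.27, adjusted p = 0.375).

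The changes can be set beside the elements in the promoter windows, as a description with no test. In GLUT3KO against WT without acetate, 4 of 11 members with an element and 11 of 17 without one were higher, beside 24.9% of all tested genes. Both sets had a median log2 change of 0.63. With acetate these counts were 8 of 11 and 12 of 17, beside 20.9% of all tested genes, with medians of 0.87 and 0.78. Acetate in WT gave medians of -0.44 with an element and -0.23 without one. There 2 members were lower in each set, beside 2.28% of all tested genes. These counts are not read as a difference between the sets. Ern1, Eif2ak3 and Dnajb9, with the largest log2 changes under GLUT3 loss, had no match to either element in the window.

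Other genes of the same compartment were counted from lists made for this description, to be read against the 24.9% of all tested genes that were higher in GLUT3KO than in WT without acetate and the 20.9% with it. In GLUT3KO against WT without acetate, 12 of 24 tested genes of other ER chaperones and folding enzymes were higher and 0 lower, among them Ero1b, an oxidase that drives disulfide formation (16.5 ± 0.655 TPM in GLUT3KO and 7.06 ± 1.27 TPM in WT), and Dnajc10, an ER reductase (114 ± 0.528 TPM in GLUT3KO and 57.8 ± 9.55 TPM in WT). Of 23 other ER degradation genes 12 were higher and 0 lower, led by Fam8a1, a partner of HRD1, with 139.7 ± 9.59 TPM in GLUT3KO and 24.4 ± 2.04 TPM in WT (log2 change 2.47 ± 0.11, adjusted p = 1.07e-09). Edem3, a relative of Edem1, averaged 140.2 ± 23.7 TPM in GLUT3KO and 34.2 ± 13.4 TPM in WT. Of 30 genes of the translocon, the signal peptidase and the oligosaccharyltransferase, 9 were higher, near the share over all genes, and 0 lower. They were led by Sec11c, a signal peptidase subunit, with 173 ± 29.0 TPM in GLUT3KO and 41.9 ± 3.95 TPM in WT. Of 30 genes of transport between the ER and the Golgi, 20 were higher and 0 lower, among them the COPII coat genes Sec23a (294 ± 13.9 TPM in GLUT3KO and 136 ± 12.4 TPM in WT) and Sec24a (89.0 ± 11.4 TPM in GLUT3KO and 35.8 ± 5.51 TPM in WT). Of 29 target genes of ATF4 and CHOP, 11 were higher and 0 lower, among them the cystine transporter gene Slc7a11 (10.3 ± 1.00 TPM in GLUT3KO and 4.31 ± 1.28 TPM in WT) and the stress gene Nupr1 (222 ± 20.97 TPM in GLUT3KO and 100.1 ± 20.2 TPM in WT). The medians of these lists were 0.57, 0.70, 0.44, 0.68 and 0.38, in that order, against 0.17 over all genes.

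Of 8 genes of UFM1 conjugation, 4 were higher and 1 lower in GLUT3KO. The lower one, Ufsp1, a protease that processes UFM1, averaged 0.688 ± 0.394 TPM in GLUT3KO and 2.59 ± 1.17 TPM in WT. Of 21 other stress sensors and regulators, 8 were higher and 1 lower. Creb3l2, a membrane-bound factor of the ATF6 kind, averaged 88.9 ± 3.03 TPM in GLUT3KO and 25.0 ± 6.20 TPM in WT, and Map3k5, the stress kinase ASK1, 42.1 ± 3.07 TPM in GLUT3KO and 6.17 ± 2.43 TPM in WT. Of 18 cytosolic and mitochondrial heat shock genes, counted for contrast, 1 was higher (Hsph1) and 2 lower, with a median of -0.03. The mitochondrial chaperonin genes Hspe1 and Hspd1 were the lower ones, Hspe1 with 189 ± 9.53 TPM in GLUT3KO and 406 ± 43.0 TPM in WT and Hspd1 with 677 ± 189 TPM in GLUT3KO and 1174 ± 395 TPM in WT. With acetate the counts of higher genes were 12 of 24, 15 of 23, 15 of 30, 21 of 30 and 13 of 29 for chaperones, degradation, translocon, transport and ATF4 or CHOP targets, with 0 lower in each. UFM1 conjugation then had 2 higher and 1 lower, the other stress sensors 8 and 3, and the heat shock genes 0 and 4. In ACLYKO against WT without acetate, the first 5 lists had 1, 1, 3, 0 and 3 higher genes and 1, 1, 0, 6 and 5 lower ones, where 12.7% of all tested genes were higher and 6.38% lower. Their median log2 changes there were -0.33, -0.03, 0.03, -0.33 and -0.21, against 0.03 over all genes.

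Levels of other marker lists are given beside these genes. The plasma cell list, whose sum is mostly Pou2af1, summed to 93.1 to 112 TPM in GLUT3KO, 69.5 to 99.4 TPM in ACLYKO and 52.5 to 62.6 TPM in WT without acetate. With acetate it summed to 81.7 to 97.4 TPM in GLUT3KO, 115 to 135 TPM in ACLYKO and 68.7 to 89.5 TPM in WT, so that GLUT3KO and WT overlapped and ACLYKO was highest. Without acetate the NK list summed to 10.5 to 34.3 TPM in GLUT3KO, 4.22 to 7.65 TPM in ACLYKO and 3.65 to 5.08 TPM in WT, and was mostly Klrd1, with Ncr1 and Klrb1c under 1 TPM. With acetate the NK list summed to 19.2 to 29.8 TPM in GLUT3KO, 2.51 to 4.96 TPM in ACLYKO and 4.70 to 4.89 TPM in WT. Their part in the differences was not tested. Of the 32 members, 14 overlap another annotated gene, and for 5 (Hspa5, Syvn1, Derl2, Pdia4 and Ddit3) that gene reached 1 TPM in at least 1 library. The highest such levels were 114 TPM for Mis12 beside Derl2 and 110.4 TPM for Mars1 beside Ddit3, both on the opposite strand. Mir704, which overlaps Pdia4, reached 86.2 TPM and Mir6988, which overlaps Syvn1, 28.1 TPM, both on the same strand as the member. No label or header says whether reads were assigned by strand, so reads of opposite-strand pairs may not be separate. For same-strand pairs, assignment by strand would not separate them.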

How the data were processed

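RNA from 18 Th17 cultures in 6 groups was sequenced by mRNA-seq. The submitters' processing notes list featureCounts 1.6.4, STAR 2.7.2b and DESeq2, beside bcl2fastq 2.20.0.422, cutadapt and the build GRCm38.p6, with no roles given. The deposited table holds TPM values (scaled by the authors for gene length and depth) for 45703 genes, and each library sums to 1000000. These values carry a decimal comma and were read as the authors gave them. Multiplying by gene length and scaling gave whole reads within 0.01 for 100% of the values under 500 reads, where this was checked, which set the depth of 18.7 to 30.1 M reads per library.

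The members, gene lists and tests were chosen with earlier results of these data known. Groups came from the sample labels. log2(TPM + 1) of genes with at least 1 TPM in at least 3 libraries was fitted in limma 3.58.1 (R 4.3.3) with 6 group means over all 18 libraries, a mean trend and robust variance estimation. P-values were adjusted by Benjamini-Hochberg within each of 10 comparisons over 14229 genes, and an adjusted p under 0.05 was called. Values after ± are standard errors beside log2 changes and SDs (n = 3) beside means. Fold changes on this scale understate changes of low genes. Values in each library are given for Hspa5, Xbp1, Atf4, Atf6, Ddit3, Ern1, Eif2ak3 and up to 3 further members per role with the smallest adjusted p, and for Sdf2l1, added after its values were seen. From other gene lists, the genes named were among the 4 with the smallest adjusted p. The fit was tested on simulated counts drawn independently for each library. They lack the shared within-group axis of these data, so that test does not cover it.

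Same-numbered libraries deviated together (every pair's correlation over 0.1) in ACLYKO against WT without acetate (0.285 to 0.577) and in the acetate comparisons of GLUT3KO (0.147 to 0.194), ACLYKO (0.265 to 0.548) and WT (0.120 to 0.130). The pairing comes from the data, since the labels give only shared numbers. In GLUT3KO against WT without acetate the correlations were 0.721, 0.622 and -0.354 for replicates 1, 2 and 3. Against ACLYKO, GLUT3KO had 0.635, 0.335 and -0.174. Only replicate 3 was under 0.1 in either. Alternatives were other pseudocounts, filters and scalings, voom on the recovered reads, array weights, a replicate block, the within-group axis as a covariate, and left-out libraries.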

Additional observations from a re-analysis of the deposited data

How the results depend on the processing

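Counts of called members moved by over 1.5 times under these settings, with the share of all tested genes called in brackets. In GLUT3KO against WT without acetate, at 16 (33.4%) in the fit over all libraries, they were 10 (34.1%) with median-ratio scaling, 10 (34.8%) with voom, 10 (37.5%) with the correction for GC content and length, 28 (74.7%) with array weights, 27 (51.4%) without the 8 libraries with an axis score above 0 and 29 (60.1%) without the 4 high-score ones. In ACLYKO against WT without acetate, at 1 (19.1%), they were 0 (21.8%) with median-ratio scaling, 0 (21.9%) with voom, 0 (2.4%) with only the groups compared, 2 (23.1%) with the replicate block, 5 (2 higher and 3 lower, 25.7%) with the GC and length correction, 12 (8 higher and 4 lower, 48.1%) with the axis as covariate, 23 (21 higher and 2 lower, 48.5%) with array weights, 23 (21 higher and 2 lower, 45.7%) without the 8 and 20 (18 higher and 2 lower, 39.3%) without the 4. In ACLYKO against WT with acetate, at 4 (13.5%), they were 2 (11.7%) with median-ratio scaling, 2 (12.2%) with voom, 13 (24.3%) with only the groups compared, 8 (16.3%) with the replicate block, 15 (14 higher and 1 lower, 39.2%) with the axis, 23 (21 higher and 2 lower, 55.1%) with array weights, 16 (22.8%) without the 8 and 14 (28.7%) without the 4. In GLUT3KO against ACLYKO, at 12 (40.4%), they were 7 (17.1%) with only the groups compared, 22 (20 higher and 2 lower, 69.6%) with array weights, 22 (21 higher and 1 lower, 62.2%) with the axis and 19 (18 higher and 1 lower, 58.2%) without the 4. With acetate in WT, at 4 (6.5%), they were 2 (10.3%) with only the groups compared, 11 (33.2%) with array weights, 12 (28.6%) with the axis, 7 (13.1%) without the 8 and 8 (19.8%) without the 4. With acetate in GLUT3KO, at 3 (1 higher and 2 lower, 12.7%), they were 24 (7 higher and 17 lower, 68.3%) with array weights, 15 (6 higher and 9 lower, 45.8%) with the axis and 9 (3 higher and 6 lower, 36.2%) without the 4. With acetate in ACLYKO, at 3 (17.3%), they were 0 (2.98%) with only the groups compared, 15 (1 higher and 14 lower, 45.5%) with array weights, 8 (2 higher and 6 lower, 46.6%) with the axis, 11 (1 higher and 10 lower, 37.4%) without the 8 and 8 (31.6%) without the 4. For the acetate difference of GLUT3KO minus WT, at 0 (0.773%), they were 1 (0.773%) with median-ratio scaling, 1 (0.253%) with voom, 14 (11 higher and 3 lower, 45.1%) with array weights, 5 (5.24%) with the axis and 2 (5.5%) without the 4. For that of ACLYKO minus WT, at 0 (1.34%), they were 1 (12.9%) with array weights and 1 (11.1%) with the axis. Leaving out the 8 libraries left 1 library in GLUT3KO and 1 in WT with acetate, which were assumed to vary like the other groups. The cause was not tested.

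Leaving out each library in turn gave 11 to 23 calls in GLUT3KO against WT, 18 to 26 with acetate, 0 to 6 in ACLYKO against WT, 2 to 9 with acetate, 10 to 14 in GLUT3KO against ACLYKO, 2 to 5, 1 to 5 and 1 to 7 for acetate in GLUT3KO, ACLYKO and WT, and 0 to 1 and 0 to 0 for the acetate differences of GLUT3KO and ACLYKO minus WT. These ranges are given without the matching shares of all tested genes.

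Some log2 changes turned sign and passed the threshold or lost their call. Ssr1 (-0.00765) and Ufm1 (-0.0230) in GLUT3KO against WT did so with the GC and length correction. In ACLYKO against WT, Derl2 was 0.29, Herpud1 0.21, Hyou1 0.57 and Ppp1r15a 0.68 with array weights, and 0.29, 0.23, 0.54 and 0.69 without the 8 or the 4 libraries. With acetate in ACLYKO, Atf4 was -0.44 with array weights, -0.47 without the 8 or the 4 libraries, and -0.59 to 0.48 when each library was left out in turn (lowest without ACLYKO replicate 1). There Herpud1 was -0.20 and Hyou1 -0.39 with array weights, and Ppp1r15a -0.49 with array weights and -0.47 without the 8. In GLUT3KO against ACLYKO, Atf4 was -0.31 with array weights.

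Some comparisons had at least 1 same-numbered pair with a correlation under 0.1. There the replicate block gave 21 calls in GLUT3KO against WT, 22 with acetate and 13 in GLUT3KO against ACLYKO. In those with every pair over 0.1 it gave 2 in ACLYKO against WT, 2 with acetate in GLUT3KO, 3 in ACLYKO and 4 in WT. The GC and length correction and the fit without the 4 libraries were chosen after seeing the data. Depth limits most the values of Derl3, the member with the lowest levels (0.0862 to 6.51 TPM).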
